A study of Homo sapiens with 6 samples.

Results

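The cytochrome P450 genes are described here in H441, an established human lung adenocarcinoma cell line, after siRNA against the transcription factor gene ETS2. The members are all genes on the array whose single annotated symbol is CYP followed directly by a digit, each read by its brightest probe set, called a probe below. They number 53 of the 18417 genes measured. By RefSeq, 47 are protein-coding, and the other 6 are the pseudogenes CYP2B7P, CYP2D7, CYP4Z2P, CYP2G1P and CYP2A7P1 and the antisense RNA CYP1B1-AS1, which the symbol rule takes in although it is not a P450 gene.

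Both groups were H441 cells grown in DMEM/F12 and transfected with Lipofectamine RNAiMAX. The control group received scrambled siRNA and the other group a pool of siRNAs against ETS2, an ETS family factor that RAS signalling activates through ERK. RNA was extracted at 48 h, and 3 transfections per group were hybridised, 1 array each. All come from this 1 cell line, so the p-values measure the spread between transfections. Levels are log2 RMA values, and every difference is ETS2 siRNA minus control. Changed genes are those with an adjusted p under 0.05 (limma over all 18417 genes, Benjamini-Hochberg).

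Cytochrome P450 enzymes hold a heme iron and insert an oxygen atom into their substrates, using electrons from NADPH that reach most of them through P450 reductase in the endoplasmic reticulum or through adrenodoxin in mitochondria. Families 1 to 3 mainly oxidise drugs, carcinogens and other foreign compounds, family 4 mainly fatty acids, and the higher families sterols, steroid hormones, bile acids and vitamins A and D. In lung, the secretory club cells and alveolar type II cells carry much of the P450 activity, and CYP2B7P and CYP4B1 are widely used as markers of that epithelium. The substrates include tobacco carcinogens, which CYP1A1 and CYP1B1 activate.

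ETS2 itself stood at 9.79, 9.91 and 9.79 on the control arrays and 8.87, 8.70 and 8.78 after ETS2 siRNA, a fall of 1.05 on the log2 scale (adjusted p = 0.000254), as the labels state. Array medians over all genes lay between 8.07 and 8.10. The lung epithelial markers fit the labelled cell type only in part. Of 15 measured, CYP2B7P and CYP4B1 included, 12 lay above the background floor explained below, as did 70.1% of all genes. SLC34A2, NKX2-1 and SFTPB were among the 12. SFTPC, the surfactant gene that defines mature type II cells, read 6.55 to 6.72 and was not above the floor by its mean. SCGB1A1 (6.28 to 6.61) and SCGB3A2 (5.54 to 5.79) were below it on every array. Of 12 hepatocyte markers, 4 lay above the floor (SERPINA1, APOA1, CYP2E1 and APOA2), and ALB and HP were among those below it.

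Of the 53 cytochrome P450 genes, 3 fell after ETS2 siRNA and 0 rose. CYP2B7P, a pseudogene transcribed in lung epithelium, fell to 66.9% of its control level. CYP2B6, the protein-coding neighbour of CYP2B7P, fell to 72.5%, to a level at background. CYP1B1, which activates polycyclic aromatic hydrocarbons and hydroxylates estradiol, fell to 74.2%. The share changed was 4.91% over all genes (2.63% lower and 2.28% higher), and 6.83% over the 12913 genes above the floor (3.63% lower). The 3 called members were all above the floor by their mean over the 6 arrays. CYP2B6 was above it only through its control arrays (mean 7.10), as its ETS2 siRNA mean of 6.64 was below it. Over the 53 members the median difference was -0.01, with 31 negative and 21 positive. Over all genes it was 0.0033, with 8687 negative and 9364 positive. A difference smaller than 0.1 in either direction was read for 37 of the 53.

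To separate expressed from silent members, 360 olfactory receptor genes, which are typically silent outside the nose, served as the background. The 95th percentile of their mean levels, a log2 value of 6.68, was taken as the floor. By the mean over all 6 arrays, 24 members (45.3%) lay above the floor and 29 below it, where 70.1% of all genes lay above. The members nearest the floor were CYP4B1 (mean 6.76), CYP11B2 (6.79) and CYP2B6 (6.87) just inside and CYP4F22 (6.24) just outside, so no member lay in the 0.44 below the floor. With the floor at the 99th percentile (7.26), 8 of the 24 dropped below it: CYP11B2, CYP1A2, CYP26B1, CYP2A7P1, CYP2B6, CYP2E1, CYP46A1 and CYP4B1. For those 8, the readings are close to what silent genes give. Levels of different genes come from different probes and are not set against each other.

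**Figure D1:**
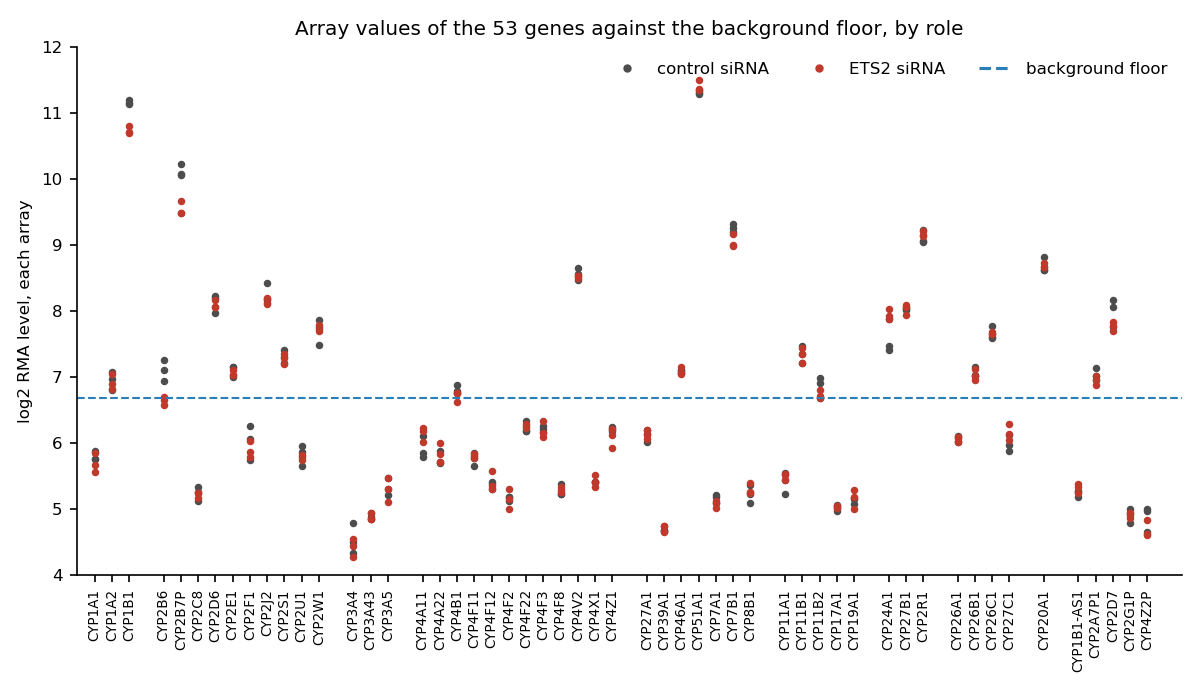
Log2 RMA level on each of the 6 arrays (vertical axis) for the 53 genes, grouped by role (horizontal axis), with control arrays in grey, ETS2 siRNA arrays in red and the background floor of 6.68 as a dashed line. The 3 members of family 3 and 10 of the 12 members of family 4 lie below the line. The grey and red points separate by at least 0.25 for CYP1B1, CYP2B7P and CYP2B6, and by 0.02 or less for CYP7B1, CYP24A1 and CYP51A1.

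Of the changed members, CYP2B6 is the one with an entry in the RefSeq promoter table used here, and CYP4B1 is the other lung marker with one. The table held 34 of the 53 members, and CYP1B1 and CYP2B7P were not among them. Each window below runs from 250 bases before to 50 bases after the annotated start, 5′ to 3′ on the plus strand of GRCh38.p14. They are shown because ETS factors bind DNA at a GGAA core, which is in capitals here in either orientation (GGAA or TTCC).
CYP2B6, chr19:40991032-40991331: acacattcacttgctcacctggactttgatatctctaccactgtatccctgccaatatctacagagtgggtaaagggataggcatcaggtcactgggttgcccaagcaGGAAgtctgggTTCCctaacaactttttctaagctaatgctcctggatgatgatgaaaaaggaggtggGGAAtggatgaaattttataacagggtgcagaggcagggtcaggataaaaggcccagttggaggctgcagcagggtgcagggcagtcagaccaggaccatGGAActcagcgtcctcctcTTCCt
CYP4B1, chr1:46798796-46799095: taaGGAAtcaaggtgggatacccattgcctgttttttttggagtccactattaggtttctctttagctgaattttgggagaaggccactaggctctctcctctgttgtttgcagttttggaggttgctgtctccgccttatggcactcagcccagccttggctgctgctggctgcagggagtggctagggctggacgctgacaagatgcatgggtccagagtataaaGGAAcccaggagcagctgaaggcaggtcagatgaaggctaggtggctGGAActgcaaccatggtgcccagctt
The CYP2B6 window held 5 such cores and the CYP4B1 window 3. The core is common. On both strands it occurs in 95.5% of 27305 promoter windows of this length, and in 32 of the 34 members' windows. The longer word GGAAGT, which contains the core, occurs in 23.2% of all windows and in 4 of the 34. CYP2B6 has it once, beginning 142 bases before the start, and CYP4B1 does not have it in this window. These matches describe the letters and say nothing about binding.

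Among the family 1 enzymes, whose genes are classic targets of the aryl hydrocarbon receptor, CYP1B1 fell and the other members did not pass the test. CYP1B1 read 11.14, 11.20 and 11.15 on the control arrays and 10.71, 10.80 and 10.69 after ETS2 siRNA. Every control array lay above every ETS2 siRNA array, by at least 0.34. The difference was -0.43 (SE 0.0442, 95% interval -0.53 to -0.33, adjusted p = 0.00234). Over all 18417 genes, 58 (0.315%) had a difference at least as far below 0. CYP1A2, mainly a liver enzyme, had group means of 6.94 and 6.92 and a difference of -0.03. CYP1A1, the most strongly inducible member of the family, was silent, with 5.75, 5.75 and 5.87 in control cells and 5.66, 5.55 and 5.84 after ETS2 siRNA. CYP1B1-AS1, the antisense RNA beside CYP1B1, also read below the floor, at 5.17 to 5.38 over the 6 arrays, with a difference of 0.09.

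CYP2B7P and CYP2B6 lie next to each other among the CYP genes of chromosome 19 in RefSeq, in a cluster that also holds CYP2G1P, CYP2A7P1, CYP2F1 and CYP2S1. CYP2B7P read 10.06, 10.08 and 10.23 in control cells and 9.67, 9.48 and 9.48 after ETS2 siRNA. The groups were 0.39 apart at their nearest arrays. Its difference of -0.58 was the largest among the 53 members (SE 0.0679, 95% interval -0.74 to -0.42, adjusted p = 0.00425). CYP2B6, which hydroxylates bupropion and efavirenz in liver, read 7.10, 6.94 and 7.26 in control cells and 6.57, 6.69 and 6.65 after ETS2 siRNA. All control arrays were above the floor and the mean of the ETS2 siRNA arrays, 6.64, was below it, so the measured difference of -0.46 (SE 0.0777, 95% interval -0.64 to -0.28, adjusted p = 0.0158) ends at background. Control replicate 3 was the highest array for both genes. CYP2B7P and CYP2B6 are near-identical copies, and whether the CYP2B6 probe also reads CYP2B7P transcripts was not tested, so the pair may not be 2 separate results.

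The CYP2B6 call rested on all arrays being present more than the other calls did. It was lost without control replicate 1 (adjusted p = 0.0606) and without ETS2 siRNA replicates 1, 2 or 3 (0.0669, 0.0525 and 0.0734), with differences between -0.54 and -0.38 over the 6 fits that left out an array. CYP1B1 and CYP2B7P stayed called in each of those 6 fits, with adjusted p up to 0.0206 and 0.0325. With all 33297 probes tested in place of 1 probe per gene, an alternative added after the data were seen, CYP1B1 and CYP2B7P were called (adjusted p = 0.0155 and 0.0281) and CYP2B6 was not (0.0651).

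**Figure D2:**
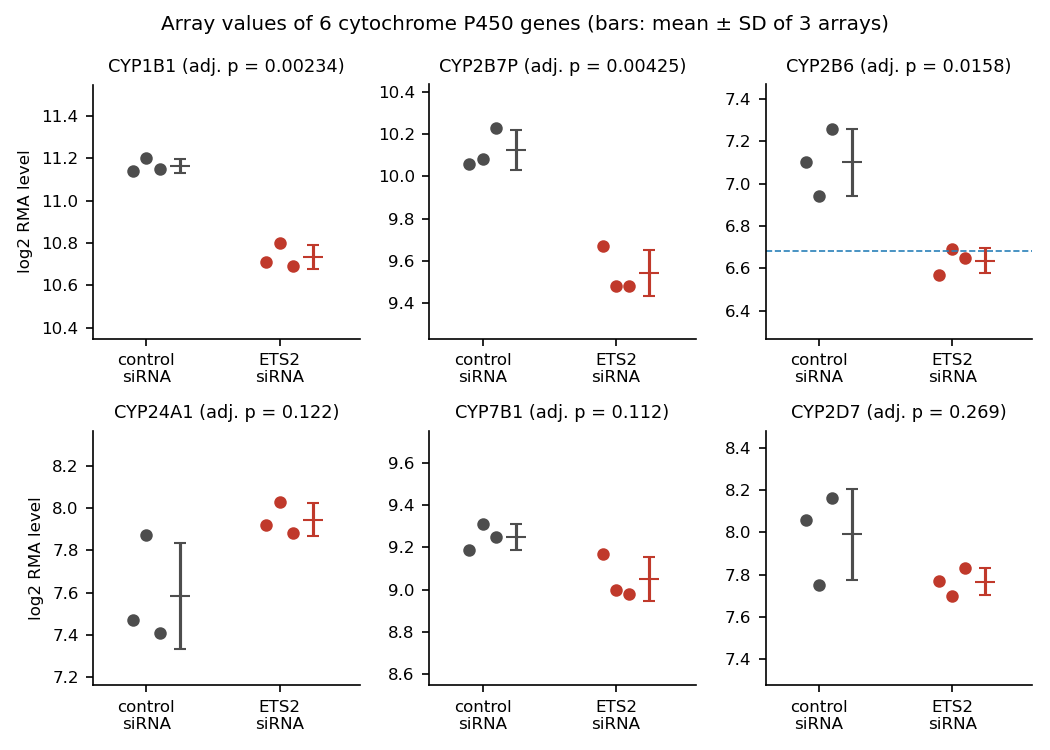
Log2 RMA levels on the 3 control arrays (grey) and 3 ETS2 siRNA arrays (red) for the 3 changed members and the 3 members above the floor with the next smallest p, each panel spanning the same range on its vertical axis, with the mean ± SD beside the points and the background floor dashed where it falls in the panel. The groups are at least 0.25 apart for CYP1B1, CYP2B7P and CYP2B6, and the ETS2 siRNA arrays of CYP2B6 lie at the floor. The nearest arrays of the 2 groups are 0.01 apart for CYP24A1 and 0.02 for CYP7B1.

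The neighbours in the chromosome 19 cluster did not pass the test. CYP2S1, a dioxin-inducible enzyme of epithelia, had means of 7.31 ± 0.10 and 7.27 ± 0.07 (SD, n = 3). CYP2A7P1 had a difference of -0.08 (adjusted p = 0.526), and CYP2F1, a lung enzyme that activates naphthalene, was below the floor at 5.74 to 6.25 (difference -0.12, 95% interval -0.40 to 0.15). CYP2G1P was below it too, at 4.78 to 5.00. The CYP2A genes of the cluster share probes, and their 2 readings with several symbols, which the symbol rule leaves out, had differences of -0.04 and -0.05. In all, 9 probes carried a CYP symbol together with others, and 0 of them changed when all probes were tested with limma (0 at an unadjusted p under 0.05). The smallest adjusted p among them was 0.576.

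Other family 2 members above the floor did not pass the test. CYP2J2, which makes epoxides of arachidonic acid, read 8.18, 8.42 and 8.17 in control cells and 8.11, 8.12 and 8.19 after ETS2 siRNA (difference -0.12, 95% interval -0.28 to 0.04). CYP2D6, the debrisoquine hydroxylase of liver, had means of 8.13 ± 0.14 and 8.09 ± 0.06 (SD, n = 3). Its pseudogene CYP2D7 read 8.06, 7.75 and 8.16 against 7.77, 7.70 and 7.83, and the groups overlapped through control replicate 2 (difference -0.22, adjusted p = 0.269). Without that array CYP2D7 differed by -0.34 and was called (adjusted p = 0.0227), and without control replicate 3 it differed by -0.14 (0.528). The 2 genes are near-identical, so reads of one by the probe of the other cannot be told apart. CYP2W1, an enzyme found in tumours, had means of 7.70 ± 0.20 and 7.73 ± 0.05, and CYP2E1, the ethanol-inducible enzyme, 7.09 ± 0.09 and 7.05 ± 0.04 (SD, n = 3). CYP2U1 and CYP2C8 were below the floor.

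Family 3, which handles much drug metabolism in liver, was silent. CYP3A4, CYP3A5 and CYP3A43 read 4.26 to 5.46 over all arrays, with differences between -0.12 and -0.01.

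Family 4, the fatty acid omega-hydroxylases, had 2 of 12 members above the floor and 0 changed. CYP4B1, which bioactivates lung toxins such as 4-ipomeanol and is a marker of club cells, read 6.79, 6.76 and 6.88 in control cells and 6.61, 6.75 and 6.76 after ETS2 siRNA. The groups touched at 6.76, and the difference was -0.10 (95% interval -0.23 to 0.02, adjusted p = 0.382). One array was below the floor, and the mean over all 6 was 0.07 above it. CYP4V2, the fatty acid hydroxylase mutated in Bietti crystalline dystrophy, had means of 8.56 ± 0.10 and 8.52 ± 0.02 (SD, n = 3) and a difference of -0.04. The other 10, from CYP4A11 to CYP4Z1, were below the floor. CYP4A11 (0.22, adjusted p = 0.218) and CYP4Z1 (-0.13, adjusted p = 0.383) had the smallest p of these. The pseudogene CYP4Z2P differed by -0.19 (adjusted p = 0.367), also below the floor.

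Of the sterol and bile acid enzymes, 3 of 7 were above the floor and 0 changed. CYP7B1, the oxysterol 7-alpha-hydroxylase, read 9.19, 9.31 and 9.25 in control cells and 9.17, 9.0 and 8.98 after ETS2 siRNA. The groups did not overlap, though ETS2 siRNA replicate 1 lay 0.02 under the lowest control array. Its difference of -0.20 (SE 0.0600, 95% interval -0.34 to -0.06) had an adjusted p of 0.112 and was not called. CYP51A1, the lanosterol demethylase of cholesterol synthesis, read 11.30, 11.29 and 11.33 in control cells and 11.35, 11.37 and 11.50 after ETS2 siRNA, again without overlap (difference 0.10, 95% interval -0.01 to 0.21, adjusted p = 0.333). The second of its 2 probes differed by 0.05. CYP46A1, the brain cholesterol 24-hydroxylase, had a mean of 7.08 in both groups. CYP7A1, the rate-limiting enzyme of bile acid synthesis, CYP8B1, CYP27A1 and CYP39A1 were below the floor.

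All 3 vitamin D enzymes were above the floor, and 0 changed. CYP24A1, which inactivates vitamin D and is a strong target of its receptor, read 7.47, 7.87 and 7.41 in control cells and 7.92, 8.03 and 7.88 after ETS2 siRNA. Control replicate 2 lay 0.01 under the lowest ETS2 siRNA array, and the other control arrays were further below. The difference of 0.36 (SE 0.112, 95% interval 0.10 to 0.62) was the largest positive one among the 53 members and had an adjusted p of 0.122. Without control replicate 2 it was 0.50, with an adjusted p of 0.00764, and over the other 5 fits that left out an array the adjusted p lay between 0.235 and 0.308. CYP2R1, the 25-hydroxylase, had means of 9.11 ± 0.10 and 9.16 ± 0.04, and CYP27B1, which makes the active hormone, 8.02 ± 0.02 and 8.02 ± 0.08 (SD, n = 3). VDR, the vitamin D receptor gene, stood at 10.46 and 10.45.

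The enzymes of vitamin A, the steroid hormones and CYP20A1 completed the set, with 0 changed. CYP26B1 and CYP26C1, which clear retinoic acid, had differences of -0.03 and 0.0067. CYP26A1 (-0.02) and CYP27C1 (0.17, adjusted p = 0.298) were below the floor. CYP11B1 and CYP11B2, the last enzymes of cortisol and aldosterone synthesis, had differences of -0.01 and -0.13 (adjusted p = 0.971 and 0.476). CYP11A1, CYP17A1 and CYP19A1, the aromatase, were below the floor. CYP20A1, an orphan P450, had means of 8.69 ± 0.12 and 8.68 ± 0.03 (SD, n = 3).

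**Figure D3:**
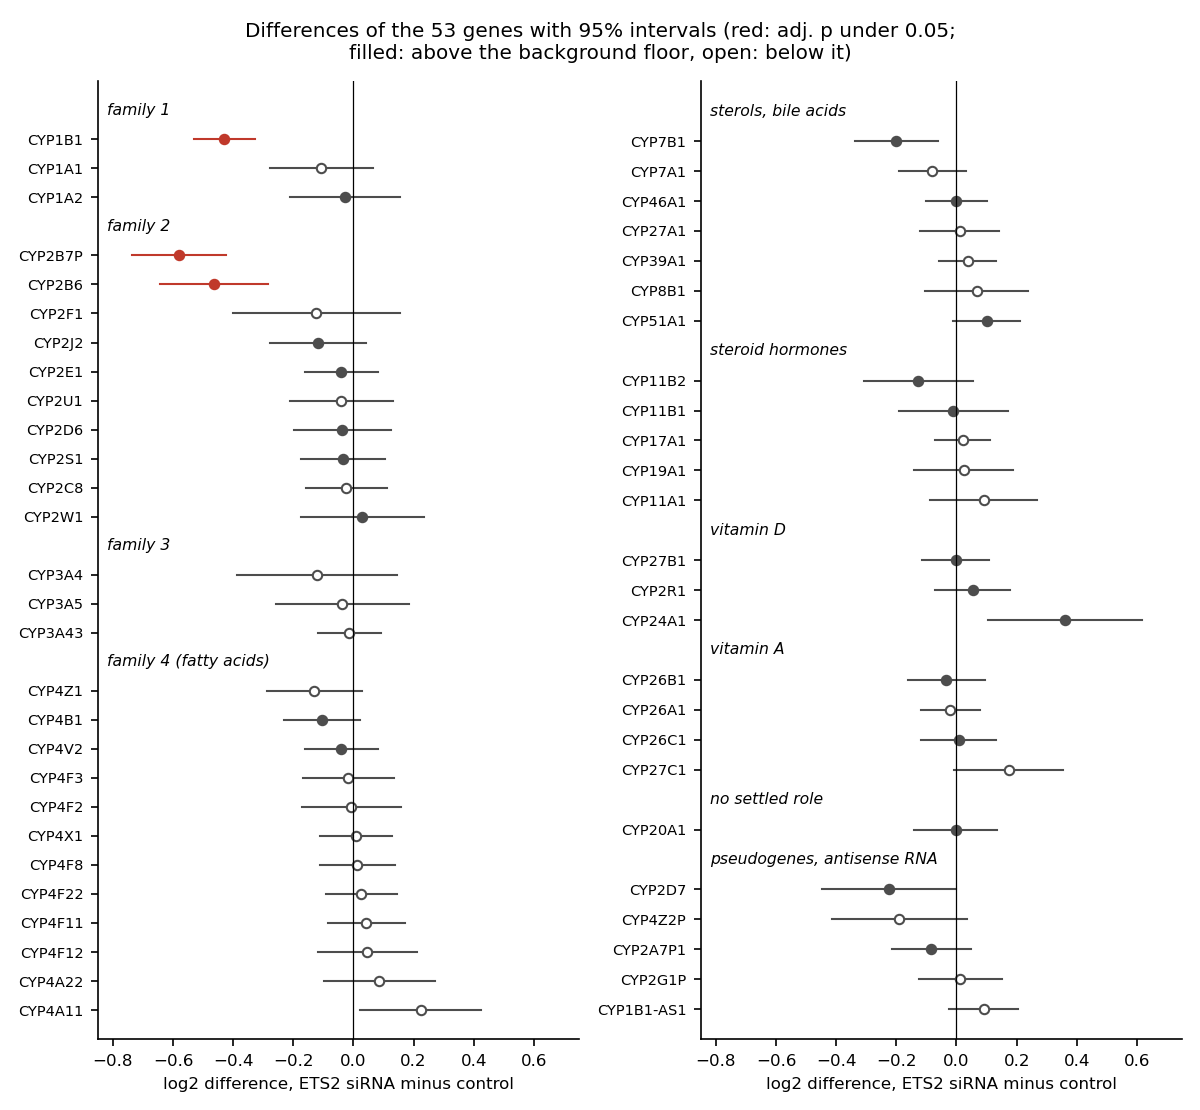
Log2 differences, ETS2 siRNA minus control (horizontal axis), with limma's 95% intervals for the 53 genes, grouped by role, with red for an adjusted p under 0.05, filled points above the background floor and open points below it. The intervals of CYP1B1, CYP2B7P and CYP2B6 end at or below -0.28, and those of CYP7B1, CYP24A1, CYP4A11 and CYP2D7 also leave out 0 without a call after adjustment.

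Counted without a model, the groups did not overlap for 6 members, 4 of them lower (CYP1B1, CYP2B7P, CYP2B6 and CYP7B1) and 2 higher (CYP24A1 and CYP51A1). All were above the floor by their mean over the 6 arrays, CYP2B6 only through its control arrays. The count is 6 of 24 above the floor, near the 29.3% of all genes above it, and 23.1% over all genes. At an unadjusted p under 0.05 there were 7 members of 53, against 18.5% of all genes. The 29 silent members had differences from -0.19 to 0.22 with 0 called, where 0.400% of all genes below the floor were called. At an unadjusted limma p under 0.05 there was 1 of the 29 (CYP4A11). The members' replicates were more spread than those of most genes, with a median SD of 0.10 among control arrays and 0.07 among ETS2 siRNA arrays, against 0.06 and 0.05 over all genes. Among the 24 above the floor, control replicate 2 was the array farther from the middle one of its group for 13, and ETS2 siRNA replicate 1 likewise for 13, where this held for 41.5% and 37.1% of all genes. Over all 53 members the shares were 37.7% and 43.4%.

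The genes that serve the P450 enzymes were taken from lists of related function. Their counts stand beside the 4.91% of all genes called (2.63% lower and 2.28% higher). Of 10 measured electron donors, 1 rose and 0 fell (median difference 0.03). CYB5B, the cytochrome b5 of the outer mitochondrial membrane, rose from 11.58 ± 0.02 to 11.82 ± 0.03 (SD, n = 3; difference 0.24, adjusted p = 0.0134), a call lost without control replicate 3 or ETS2 siRNA replicates 2 or 3 (adjusted p up to 0.0734). CYB5A, the microsomal form that assists P450 enzymes, had a difference of -0.14 and was not called (adjusted p = 0.0681). POR, the reductase on which the microsomal P450 enzymes depend, read 10.28, 10.28 and 10.31 against 10.30, 10.32 and 10.26, with a 95% interval of the difference from -0.08 to 0.09. Of 14 heme genes, 2 rose and 0 fell (median 0.01). HMOX1, which degrades heme, rose by 0.75 and BLVRB, which reduces biliverdin, by 0.18 (adjusted p = 0.00071 and 0.0331). The BLVRB call was lost in each of the 6 fits without 1 array (adjusted p 0.0565 to 0.139) and with the replicate number as a block (0.0705). ALAS1, the first enzyme of heme synthesis, differed by -0.05.

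Among 22 measured regulators of P450 genes, 1 rose and 1 fell (median difference -0.0033), where 4.91% of all genes were called. ARNT, which pairs with the aryl hydrocarbon receptor on the genes of family 1, read 10.34, 10.47 and 10.40 in control cells and 10.07, 10.05 and 9.97 after ETS2 siRNA. It fell by 0.37 (SE 0.0487, adjusted p = 0.00678), and stayed called in each of the 6 fits without 1 array. AHR, the receptor itself, read 11.81, 11.87 and 11.86 against 11.72, 11.71 and 11.71. The groups did not overlap, and the difference of -0.13 (95% interval -0.22 to -0.05) was not called (adjusted p = 0.0917). TIPARP, another target of the receptor, differed by -0.04 (adjusted p = 0.665). FOXA2, a factor of lung and liver epithelium, rose by 0.26 (adjusted p = 0.045), a call that remained in 1 of the 6 fits without 1 array, that without ETS2 siRNA replicate 2 (adjusted p up to 0.17 in the others). It was also lost with ribosomal protein scaling (0.0719) and array weights (0.0564). NKX2-1, the lung lineage factor, differed by -0.11 (adjusted p = 0.194). Whether the ARNT level bears on CYP1B1 was not tested.

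Enzymes that act beside the P450s in drug and hormone metabolism were counted in the same way, beside the 4.91% of all genes called. Of 29 other oxidising and hydrolysing enzymes, 1 rose and 2 fell (median 0.04). AOX1, aldehyde oxidase, rose by 0.51, from 6.69, at the floor, to 7.20 (adjusted p = 0.00122). ALDH1A3, which makes retinoic acid, fell by 0.37 by its brighter probe (adjusted p = 0.00494), but by the mean over its 2 probes it differed by -0.20 and was not called (0.0716). FMO5, a flavin monooxygenase, fell by 0.34 (adjusted p = 0.0209) from 6.70 to 6.36, so that its level went from the floor to below it, and the call was lost without control replicates 1 or 3 or ETS2 siRNA replicates 1 or 2 (adjusted p up to 0.0888). Of 34 conjugating enzymes limma called 0, with 5 at an unadjusted p under 0.05. MGST3 (-0.17, adjusted p = 0.0595) and GSTO1 (0.16, adjusted p = 0.109), both of glutathione metabolism, came nearest. Of 23 retinoid, steroid and sterol genes, 2 rose and 0 fell (median 0.01), SRD5A1, the steroid 5-alpha-reductase, by 0.33 and the retinol dehydrogenase DHRS9 by 0.27 (adjusted p = 0.00657 and 0.011). The DHRS9 call was lost without control replicate 3 or ETS2 siRNA replicates 2 or 3 (adjusted p up to 0.0597). The 2 P450 enzymes with other symbols, TBXAS1 and PTGIS of prostanoid synthesis, were not called by limma (adjusted p = 0.81 and 0.33), and neither had an unadjusted p under 0.05.

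**Figure D4:**
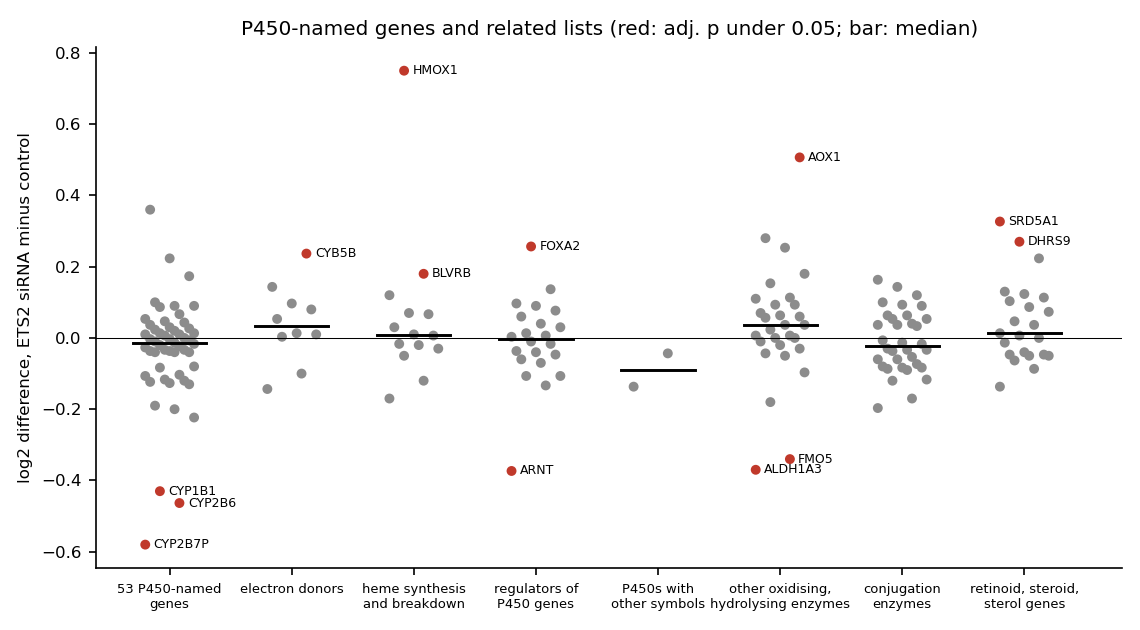
Log2 differences, ETS2 siRNA minus control (vertical axis), for the 53 P450-named genes and 7 lists of related genes (horizontal axis), with 1 point per gene, red and named at an adjusted p under 0.05, and the median of each list as a bar. The medians lie between -0.09 and 0.04, and the called points are single genes such as HMOX1 at 0.75, AOX1 at 0.51 and ARNT at -0.37.

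CYP2B7P is also one of the lung epithelial markers, and some others of that list moved the same way. Of 15 measured, 5 fell, CYP2B7P among them, and 0 rose (median difference -0.11). Over all genes 2.63% were called lower, and 3.63% over those above the floor. The differences of SCGB3A1 (0.10), SFTPD (0.06), SCGB1A1 (0.02) and SFTPC (0.02) lay above 0, without a call. AQP4 fell by 0.55 and SFTPB by 0.36 (adjusted p = 0.00737 and 0.0077), and both stayed called in each of the 6 fits without 1 array. SLC34A2 (-0.29) stayed called in 3 of them and ABCA3 (-0.20) in 0. The ABCA3 call was also lost with the replicate number as a block (adjusted p = 0.0657) and with ribosomal protein scaling (0.0815). The mean level of the list, with CYP2B7P and CYP4B1 in it, was 9.25 to 9.30 on the control arrays and 9.09 to 9.15 after ETS2 siRNA. Of the other cell types' markers, 0 of 28 were called by limma (12 hepatocyte, 5 leukocyte, 6 fibroblast and 5 endothelial genes), with 4 at an unadjusted p under 0.05. Their mean levels overlapped between groups for hepatocyte, leukocyte, fibroblast and endothelial markers alike. Above the floor were 3 of the 5 leukocyte markers (CD68, CD14 and ITGAM), 4 of the 6 fibroblast markers (COL1A1, COL1A2, COL3A1 and LUM) and 1 of the 5 endothelial markers (KDR). The leukocyte gene PTPRC, the fibroblast gene DCN and the endothelial gene CDH5 read below it. All arrays are labelled as the 1 cell line H441, and the presence of other cell types was not tested. In bulk RNA, fewer cells carrying CYP2B7P and less of its RNA per cell cannot be told apart.

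**Figure D5:**
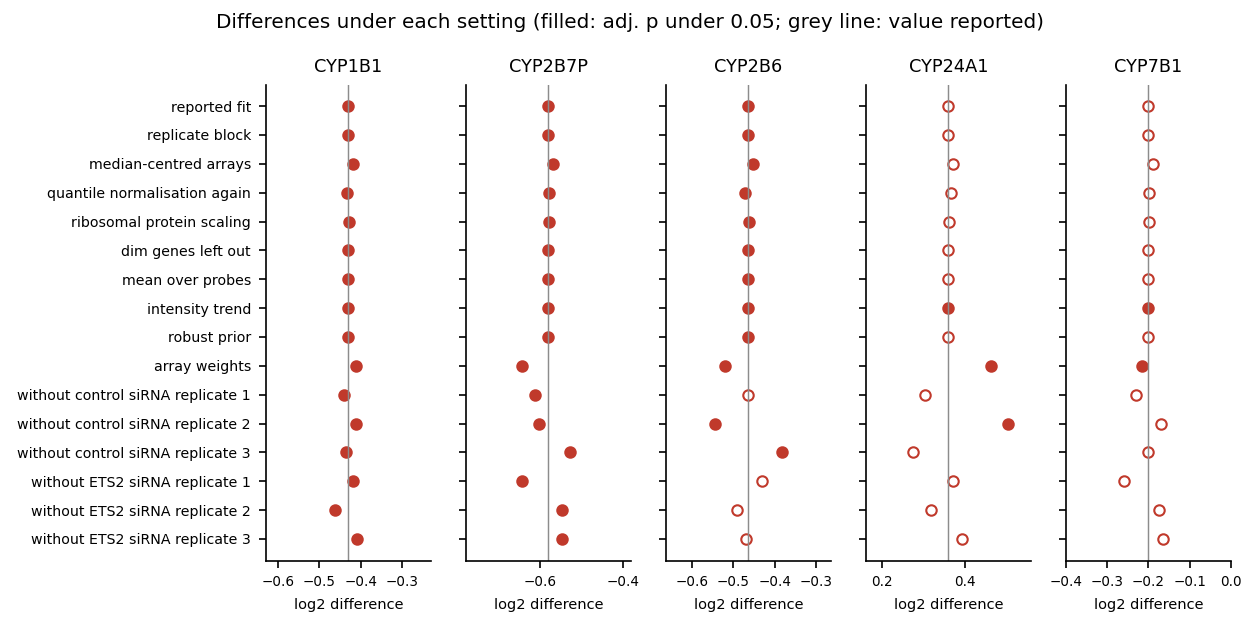
Log2 difference of 5 members (horizontal axis, each panel 0.4 wide) in the reported fit and under each of 15 other settings (vertical axis), filled where the adjusted p was under 0.05. CYP1B1 and CYP2B7P are filled in every row, CYP2B6 is open in 4 rows that leave out 1 array, and CYP24A1 and CYP7B1 are filled in 3 and 2 rows.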

How the data were processed

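The authors deposited 1 table of log2 expression levels for 33297 probes on 6 Affymetrix arrays, 1 column per array, rounded to 2 decimals. The submitters' processing notes name RMA, without settings, version or annotation. RMA removes any shift shared by all genes and narrows differences at low signal. Precision is limited by having 3 arrays a group.

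Probes were named from the platform annotation: 19460 carried 1 symbol, 1754 several and 12083 none here. Symbols were checked by gene identifier against RefSeq GRCh38.p14 (19429 matched, 0 changed). Of a gene's probes, the one with the highest mean was used. Of 56 P450 genes sorted by role, 8 had no probe of their own and were not analysed here. Related lists lost members likewise, so that 10 of 12 electron donors, 14 of 15 heme genes, 22 of 30 regulators, 29 of 30 oxidising or hydrolysing enzymes, 34 of 42 conjugating enzymes and 23 of 30 retinoid, steroid and sterol genes were measured.

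Differences were fitted with limma 3.58.1 in R 4.3.3 (lmFit and eBayes, two-sided), without a block, after a test on simulated data. With groups of 3, the smallest two-sided exact permutation p is 0.1. Errors of levels are SDs, and those of differences are moderated standard errors. Named with values are the changed members, CYP2B7P and CYP4B1, all members above the floor (array values where called or among the 12 smallest p), up to 4 silent members by smallest p, and per list up to 4 changed genes or the 2 with the smallest p; other genes were chosen after their values were seen. The members and lists were chosen with earlier results of these data known.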

Additional observations from a re-analysis of the deposited data

How the results depend on the processing

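The 3 calls among the 53 members were also made with the replicate number as a block (604 genes called in all), 3 rescalings of the arrays, dim genes left out, the mean over probes and a robust prior. With an intensity trend 5 members were called and with array weights 6, adding CYP24A1 (higher) and CYP7B1 (lower) in both and CYP2D7 (lower) with weights; the count over all genes was 1963 and 1480 in these, and 1405 with dim genes left out, against 904. With every probe tested 2 members were called (CYP1B1 and CYP2B7P). With 1 array left out, between 2 and 5 members and between 213 and 735 genes were called. Deviations of same-numbered arrays correlated at 0.177, 0.181 and 0.035, and those of differently numbered arrays at -0.198 to 0.066. Whether the replicate numbers pair the arrays is not settled by these values, and the reported fit has no block. Members above background numbered 24 under most settings, 16 with the floor at the 99th percentile and 21 where every array had to pass. Leaving pseudogene symbols out of the olfactory receptors, an alternative added after the data were seen, gave 24, and counts per related list under each setting were also added then. Over 416 differences of the 28 named members under the alternatives, 4 calls were lost (all of CYP2B6) and 7 were gained (CYP24A1, CYP7B1 and CYP2D7). A change of sign was counted for 32 uncalled differences, and 0 calls reversed. Of the 32, 7 were of CYP46A1, whose group means were both 7.08, so they are not true changes of sign. Of the 28 members, 3 had a call that could be lost or reversed. Dim members are limited by signal near background.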
